A study of Mus musculus with 18 samples.

Results

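The genes described here are type I interferon-stimulated genes, which cells switch on when interferon alpha or beta reaches their surface. Of 45 such genes named, 43 had a row of the deposited expression table that is paired with that gene alone, out of 19938 genes with such a row, and each of the 43 had 1 row. Isg15 shares its row with another gene and is given no value, and Ifi44 is not analysed here. They were measured on 18 Affymetrix Mouse Gene ST arrays, 3 biological replicates for each of 6 groups, from adult males aged 7 weeks or more. Control mice were K14Cre-Trpa1 +/+ (labelled wild type) and mutant mice were Keratin14Cre-TRPA1(fl/fl), in which exons 22 to 24 of Trpa1, the part that encodes the channel pore, are flanked by loxP sites. Both genotypes carried Cre under the promoter of keratin 14, which is active in keratinocytes, and the control and mutant colonies were bred apart for many generations on a mixed background, so that the deletion and other differences between the colonies cannot be told apart. The groups were naïve control epidermis, naïve mutant epidermis, CFA control epidermis, CFA mutant epidermis, naïve control dorsal root ganglia (DRG) and naïve mutant DRG. CFA, complete Freund's adjuvant, is an oil emulsion with killed mycobacteria, of which 50 µl was injected into the hindpaw 2 days before the epidermis was taken. Naïve mice received no injection, so the injection itself and CFA cannot be told apart. Epidermis was peeled from glabrous hindpaw skin and DRG were taken from lumbar levels 1 to 6.

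Type I interferons bind a receptor made of Ifnar1 and Ifnar2, whose kinases Jak1 and Tyk2 phosphorylate Stat2. Stat2 and Irf9 act in a complex that enters the nucleus and binds interferon-stimulated response elements in the promoters of target genes. The targets include sensors of viral nucleic acid, the transcription factors that carry the signal, and effectors that block viral entry, translation or replication. Keratinocytes and the immune cells of the epidermis both respond to interferon, and in a peeled sheet fewer cells of a responding type and less RNA per cell cannot be told apart.

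The core of the response element, taken as 2 copies of GAAA with any 2 bases between them (TTTC on the other strand), with both strands read and overlapping matches counted, was searched in the 250 bases before the start of each gene, in RefSeq sequence of GRCm38.p6. Of the 45 genes, 35 had a promoter entry and 12 of them held the core, which is 34.3%, compared with 936 of 27025 genes, or 3.46%, among all entries. The stretches of 6 of those promoters are printed below, chosen because the genes stand for the effectors, sensors and membrane proteins described next, with each match in capitals and the flanking bases in lower case. They lie at chr19:34640773-34640825 on the plus strand (Ifit1), chr19:34583361-34583428 on the plus strand (Ifit3), chr12:26456551-26456584 on the minus strand (Rsad2), chr5:120907526-120907557 on the minus strand (Oas1a), chr8:71537575-71537614 on the minus strand (Bst2) and chr8:61928022-61928086 on the plus strand (Ddx60).
Ifit1: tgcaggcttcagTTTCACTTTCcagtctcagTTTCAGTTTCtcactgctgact
Ifit3: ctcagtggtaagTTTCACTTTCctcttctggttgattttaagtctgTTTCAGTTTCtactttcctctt
Rsad2: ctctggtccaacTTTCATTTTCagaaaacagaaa
Oas1a: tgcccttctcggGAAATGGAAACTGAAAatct
Bst2: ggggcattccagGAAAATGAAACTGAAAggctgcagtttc
Ddx60: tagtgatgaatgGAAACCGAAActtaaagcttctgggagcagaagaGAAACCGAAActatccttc

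In Ifit1 the matches began 104 and 85 bases before the start, in Ifit3 156 and 122, and in Ddx60 53 and 19. The pairs in Oas1a and Bst2 overlapped, so that each reads as 1 run of capitals. Other measured genes with the core were Oas3, Slfn5, Slfn8, Stat2 and Trim30a. A match is a description of the letters and not evidence of a bound site, and the absence of a match says only that these letters are not in this window. The 11 measured genes with the core and the 22 measured genes with an entry but no match had similar CFA differences in control epidermis, with medians of 1.91 and 2.12 on the log2 scale and ranges of 1.03 to 5.53 and 0.51 to 4.24.

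All values below are log2 signals or differences of log2 signals, and a gene was called when limma's moderated test, adjusted over all 23410 rows with a gene, gave an adjusted p under 0.05. A row was counted as above background on an array when it exceeded a level that 95% of 1209 rows of odorant, vomeronasal or trace-amine receptors stayed under, which was 4.58 to 4.79 in epidermis and 5.77 to 5.92 in DRG. Where a group lay below background on all of its arrays, a fold is given as a lower bound. Replicate arrays correlated at 0.992 to 0.997. Epidermis arrays carried the keratinocyte markers (mean log2 signal over 10 genes 10.74 to 11.32, with 9 or 10 of them above background) and DRG arrays the sensory neuron markers (11.31 to 11.57 over 8 genes, all above background). In DRG, control replicate 3 and mutant replicate 1 had more keratinocyte transcript than the other 4 arrays (5.78 and 6.11, compared with 5.46 to 5.58).

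In naïve epidermis the interferon-stimulated genes were low in both genotypes and no difference between them was called. Their mean log2 signal over the 43 genes was between 5.13 and 5.20 on all 6 arrays. In control, 24 of 43 were above background on every array and 14 on none, and in mutant 26 and 14. By limma 0 of 43 were called higher and 0 lower, against 0% and 0.0299% of all rows, and 0 of 43 reached an unadjusted p under 0.05 in either direction, against 4.16% and 4.78% of rows. The median difference, mutant minus control, was 0.03 (-0.0035 over all rows), with a range of -0.27 to 0.35.

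The smallest p values among them belonged to Oas2 and Oasl2, which are enzymes of the oligoadenylate synthetase family, and their directions were opposite. Oas2 read 4.97, 4.54 and 5.20 in naïve control and 5.24, 5.34 and 5.17 in naïve mutant (difference 0.35, SE 0.16, adjusted p = 0.56). Oasl2 read 5.18, 5.39 and 5.21 in naïve control and 5.25, 4.91 and 4.81 in naïve mutant (difference -0.27, SE 0.12, adjusted p = 0.56). In both genes the arrays of the genotypes overlapped. Parp12, an ADP-ribosyltransferase, and Tor3a, a torsin ATPase, were the 2 genes whose genotypes did not overlap. Parp12 read 6.37, 6.43 and 6.41 in naïve control and 6.29, 6.26 and 6.29 in naïve mutant, and Tor3a 6.36, 6.31 and 6.27 in naïve control and 6.51, 6.39 and 6.38 in naïve mutant. The differences were -0.12 and 0.11, neither of them called. That is 1 gene lower and 1 higher, while 8.93% and 7.66% of all rows were apart in these directions.

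After CFA nearly all of the genes rose in control epidermis. By limma 42 of 43 were called higher than in naïve control epidermis, against 11.5% of all rows called higher, and 0 were called lower, against 14.8%. The exception, Oas3, had a difference of 1.05 (SE 0.35, adjusted p = 0.055). All 43 had CFA arrays that lay above every naïve array, as had 21.7% of rows. The median difference was 2.14 (0.03 over all rows), and single genes ranged from 0.51 for Uba7, the enzyme that activates Isg15 for conjugation, to 5.53 for Ifit1. With 39 of 43 above background on all CFA control arrays, and the other 4 on some of them, no gene of the group stayed undetected. The heat map of the 43 genes shows this block of raised signal over the 3 CFA control arrays.

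**Figure D1:**
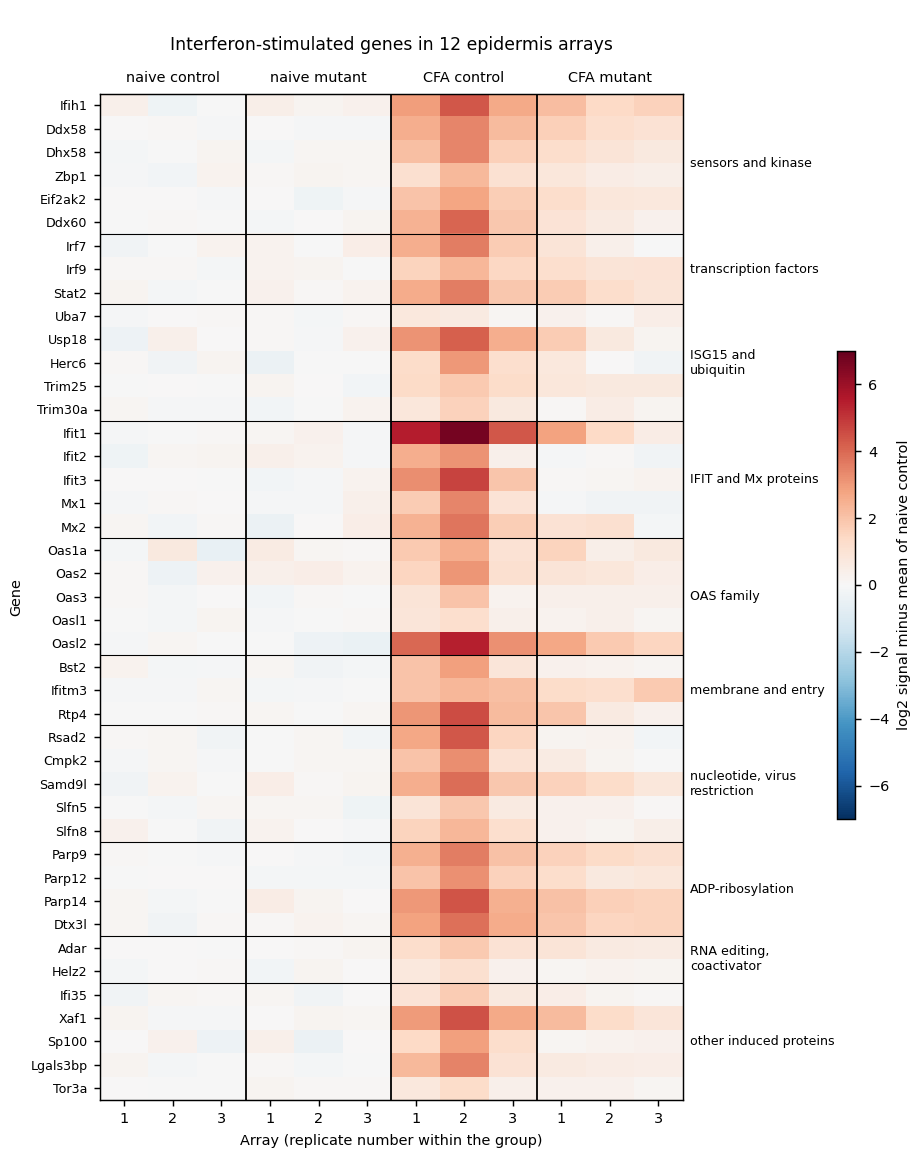
Log2 signal of 43 interferon-stimulated genes (rows, grouped by role) on 12 epidermis arrays (columns, 3 replicates per group), each as the difference from that gene's mean in naïve control epidermis; red is higher and blue is lower. The 3 CFA control arrays are red for nearly every gene and most intense in replicate 2, and the CFA mutant arrays are paler, most of all in the IFIT and Mx rows.

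For the counts by role that follow, 11.5% of all rows were called higher after CFA in control and 12.9% in mutant. In a small list, few or no calls in mutant lie near that share and are not read as a trait of the role. Sensors of viral RNA and DNA were called higher in 6 of 6 genes in each genotype, though in mutant Ddx60 stayed below background on all arrays. Ifih1 (MDA5), a helicase that senses long double-stranded RNA, read 5.84, 5.17 and 5.47 in naïve control, 8.42, 9.82 and 8.14 in CFA control, 5.92, 5.69 and 5.80 in naïve mutant and 7.66, 6.89 and 7.09 in CFA mutant epidermis. Its CFA arrays lay above the naïve arrays in both genotypes, and every CFA control array lay above every CFA mutant array. The CFA difference was 3.30 (SE 0.38, 9.84-fold, adjusted p = 2.32e-04) in control and 1.41 (SE 0.18, 2.66-fold, adjusted p = 7.45e-04) in mutant. Ddx58 (RIG-I), which senses RNA ends, read 6.80, 6.87 and 6.71 in naïve control, 9.33, 10.23 and 9.01 in CFA control, 6.83, 6.69 and 6.71 in naïve mutant and 8.44, 7.95 and 7.83 in CFA mutant. It rose by 2.73 (SE 0.26) in control and by 1.33 (SE 0.15) in mutant. Dhx58 (LGP2), a helicase that modulates the other sensors, rose at least 4.30-fold in control and at least 1.53-fold in mutant, since it lay below background in all naïve arrays. Eif2ak2 (PKR), the kinase that stops translation on binding double-stranded RNA, rose by 2.16 (SE 0.23) and 1.03 (SE 0.14), with arrays at 6.58, 6.58 and 6.50 in naïve control, 8.56, 9.33 and 8.25 in CFA control, 6.59, 6.23 and 6.47 in naïve mutant and 7.77, 7.36 and 7.27 in CFA mutant. In Ddx58 and Eif2ak2 all CFA mutant arrays lay above the naïve arrays and below the CFA control arrays, and the naïve groups overlapped. Zbp1, a sensor of Z-form nucleic acid, rose by 1.48 and 0.45, and its mutant call held in 4 of 6 fits that left out an array. Ddx60, a helicase whose promoter holds the core at 2 places, read 3.24, 3.34 and 3.27 in naïve control, 5.73, 7.38 and 5.18 in CFA control, 3.12, 3.29 and 3.47 in naïve mutant and 4.23, 3.93 and 3.57 in CFA mutant. In control it rose at least 2.83-fold. It was called in mutant at 0.62 (adjusted p = 0.024), but there it was below background on all naïve and CFA arrays and carries no fold. That call held in 2 of 6 fits that left out an array.

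The transcription factors that carry the signal rose in 3 of 3 genes in control and 2 of 3 in mutant. Stat2, which activates transcription together with Irf9, read 6.08, 5.77 and 5.86 in naïve control and 8.51, 9.51 and 7.77 in CFA control, with 6.19, 5.97 and 6.14 and then 7.67, 7.13 and 6.82 in mutant. Irf9, the DNA-binding subunit of their complex, rose by 1.78 (SE 0.21) in control and 0.86 (SE 0.11) in mutant. Stat2 rose by 2.69 (SE 0.35) and 1.11 (SE 0.19). Both genes thus had CFA arrays clear of the naïve arrays in each genotype.

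Irf7, the factor that amplifies interferon alpha production, was called in control and not in mutant. It read 5.28, 5.46 and 5.77 in naïve control, 8.03, 9.11 and 7.30 in CFA control, 5.73, 5.46 and 5.98 in naïve mutant and 6.43, 5.85 and 5.47 in CFA mutant. In control all 3 CFA arrays were above all naïve arrays (difference 2.64, SE 0.37, adjusted p = 7.80e-04), whereas in mutant the CFA and naïve arrays overlapped (difference 0.19, SE 0.23, adjusted p = 0.57).

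IFIT and Mx proteins, which bind viral RNA and trap viral nucleocapsids, rose in 5 of 5 genes in control and were called in 0 of 5 in mutant. Ifit1, whose promoter holds the core at 2 places, read 3.23, 3.28 and 3.41 in naïve control and 8.82, 10.03 and 7.67 in CFA control, and 3.42, 3.59 and 3.22 in naïve mutant and 6.15, 4.69 and 3.84 in CFA mutant. Naïve arrays were all below background, so the increase in control was at least 18.9-fold (fitted difference 5.53, SE 0.46, adjusted p = 3.26e-05). In mutant only replicate 1 was above background after CFA, and the difference of 1.48 (SE 0.47) had an adjusted p of 0.0501. The 3 CFA mutant arrays were nevertheless all above the naïve mutant arrays.

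Ifit3, which works in a complex with other IFIT proteins, read 6.87, 8.31 and 5.53 in CFA control and 3.66, 3.75 and 3.82 in CFA mutant, where no array was above background. The naïve arrays read 3.61, 3.64 and 3.55 in control and 3.42, 3.51 and 3.83 in mutant. In the mutant the CFA and naïve arrays overlapped (difference 0.16, SE 0.11, adjusted p = 0.35), while in control the increase was at least 4.94-fold (adjusted p = 1.91e-03). Mx1 and Ifit2 had negative CFA differences in mutant, -0.25 (SE 0.13) and -0.26 (SE 0.13), which were not called and lay below background throughout. In control these genes rose at least 2.71-fold and at least 2.11-fold, and the Ifit2 call held in 1 of 6 fits that left out an array. Mx2 rose at least 2.89-fold in control, and its mutant difference of 0.63 (SE 0.33) was not called.

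**Figure D2:**
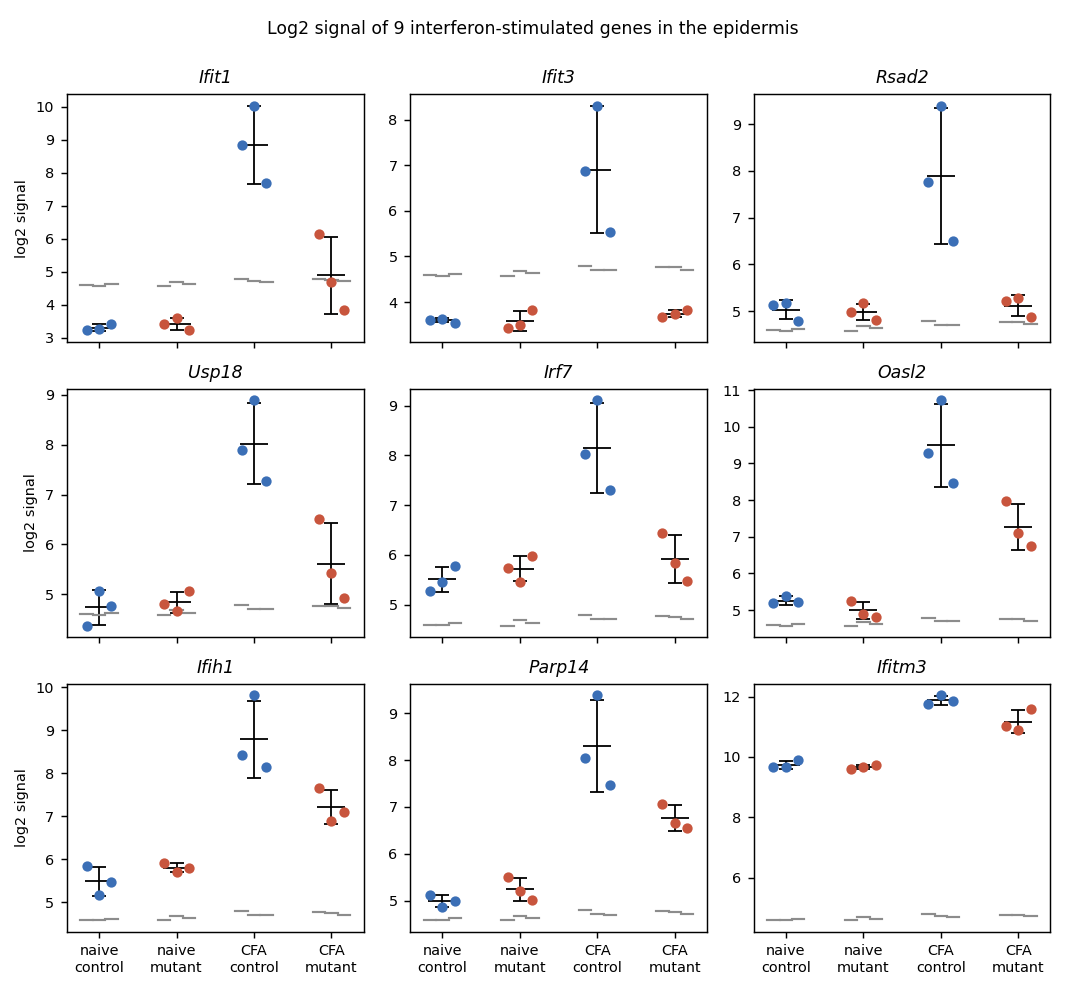
Log2 signal of 9 genes in the 4 epidermis groups; each dot is 1 array (replicates 1 to 3 from left to right; control blue, mutant red), black bars are the mean ± SD (n = 3) and grey ticks are the background of each array. For Ifit3 and Rsad2 the CFA mutant arrays overlap the naïve mutant arrays, whereas for Ifih1, Parp14, Oasl2 and Ifitm3 they lie above them.

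Members of the OAS family, most of which make the second messenger that activates RNase L, rose in 4 of 5 genes in control and 2 of 5 in mutant. Oasl2 read 9.30, 10.72 and 8.47 in CFA control and 7.96, 7.09 and 6.75 in CFA mutant, with naïve values between 4.81 and 5.39. It had the second-largest increase in control (4.24, SE 0.44, 18.8-fold, adjusted p = 1.38e-04) and the largest in mutant (2.28, SE 0.27, 4.85-fold, adjusted p = 5.97e-04). Oas3 was the single gene called in mutant (0.40, SE 0.09, adjusted p = 0.011) and not in control, where its arrays were further apart (5.71, 6.82 and 5.07 after CFA, compared with 5.19, 5.17 and 5.19 in mutant). Oas1a, Oas2 and Oasl1 were called in control (1.80, 1.92 and 0.79) and had differences of 0.61, 0.36 and 0.26 in mutant that were not called. After CFA Oas2 read 6.41, 8.01 and 6.04 in control and 5.81, 5.68 and 5.34 in mutant. Oasl1, which represses translation of Irf7 in mice, had one of the 5 smallest control increases of the group, with arrays at 5.83, 5.72 and 6.07 in naïve control, 6.72, 7.04 and 6.24 in CFA control, 5.77, 5.85 and 5.94 in naïve mutant and 6.13, 6.23 and 5.99 in CFA mutant.

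Of the 3 proteins that act at membranes, all rose in control and 1, Ifitm3, in mutant. Ifitm3 blocks fusion of viruses with the endosome and was well above background in naïve skin, at 9.65, 9.68 and 9.88 in control and 9.61, 9.68 and 9.73 in mutant. It read 11.75, 12.05 and 11.85 in CFA control and 11.02, 10.89 and 11.60 in CFA mutant. The increase was 2.14 (SE 0.11, 4.42-fold) in control and 1.49 (SE 0.17, 2.81-fold) in mutant. Its SD of 0.15 over the CFA control arrays was the lowest of the 43 genes, whose median SD in that group was 0.89.

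Bst2 (tetherin), which holds budding virions at the cell surface, read 7.69, 8.55 and 6.52 in CFA control and 5.99, 5.94 and 5.83 in CFA mutant, with naïve values of 5.42 to 5.90. It rose by 1.91 (SE 0.41) in control, and its difference of 0.33 (SE 0.11) in mutant had an adjusted p of 0.0507. Rtp4, a receptor-transporting protein, read 3.69, 3.67 and 3.76 in naïve control, 6.81, 8.30 and 5.90 in CFA control, 3.84, 3.70 and 3.86 in naïve mutant and 5.67, 4.33 and 4.03 in CFA mutant. It rose at least 5.28-fold in control, and in mutant only replicate 1 was above background after CFA.

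Among the genes of nucleotide metabolism and virus restriction, 5 of 5 rose in control and 1 of 5 in mutant. Rsad2 (viperin), which makes a chain-terminating nucleotide, read 5.13, 5.18 and 4.79 in naïve control and 7.77, 9.40 and 6.51 in CFA control, compared with 4.99, 5.16 and 4.82 and then 5.21, 5.28 and 4.86 in mutant. The control groups were apart (2.86, SE 0.57, 7.26-fold, adjusted p = 5.58e-03) and the mutant groups overlapped (0.13, SE 0.13, adjusted p = 0.51). Cmpk2, the mitochondrial nucleotide kinase that is the direct neighbour of Rsad2 on chromosome 12, read 5.45, 6.71 and 4.48 in CFA control and 4.01, 3.65 and 3.40 in CFA mutant, with naïve values of 3.36 to 3.59. It rose at least 1.93-fold in control and differed by 0.18 (SE 0.14) in mutant, below background on every array. Samd9l, a restriction factor of poxviruses, was the one that rose in both (2.78, SE 0.42, and 0.97, SE 0.19). Slfn5 and Slfn8, of the schlafen family, rose at least 1.37-fold and at least 2.19-fold in control and were below background on all mutant arrays. Slfn8 read 5.62, 6.38 and 5.19 in CFA control and 4.35, 4.24 and 4.46 in CFA mutant, and the groups did not overlap.

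ADP-ribosylation enzymes resembled the sensors, with 4 of 4 genes called in each genotype. Parp14 read 5.13, 4.87 and 4.99 in naïve control, 8.05, 9.38 and 7.47 in CFA control, 5.50, 5.21 and 5.02 in naïve mutant and 7.07, 6.65 and 6.54 in CFA mutant. Parp14, Dtx3l and Parp9 lie next to each other on chromosome 16, and the Dtx3l and Parp9 proteins form a complex. Dtx3l read 8.84, 9.90 and 8.63 in CFA control and 7.98, 7.51 and 7.57 in CFA mutant, and Parp9 8.42, 9.48 and 7.97 in CFA control and 7.56, 7.25 and 7.03 in CFA mutant, with naïve values of 5.80 to 6.26 and 5.72 to 6.03. Their increases were 3.30, 3.10 and 2.70 in control and 1.51, 1.51 and 1.44 in mutant, all with an adjusted p under 0.05. Parp12 rose by 2.27 (SE 0.32) and 1.03 (SE 0.13).

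Genes of the Isg15 and ubiquitin system rose in 5 of 5 cases in control and 1 of 5 in mutant. Usp18, the protease that removes Isg15 and restrains the receptor, read 7.89, 8.89 and 7.28 in CFA control and 6.50, 5.42 and 4.92 in CFA mutant, with naïve values of 4.37 to 5.07. It rose by 3.29 (SE 0.35, 9.77-fold, with 2 of 3 naïve arrays above background) in control, and in mutant, where the arrays after CFA were spread over more than 1 log2 unit, the difference of 0.78 (SE 0.34) was not called (adjusted p = 0.13). Trim25, a ubiquitin ligase that acts on Ddx58, was the gene called in both (1.50, SE 0.14, and 0.70, SE 0.11). Herc6, the ligase that attaches Isg15 in mice, read 4.36, 4.07 and 4.46 in naïve control, 5.58, 7.34 and 5.45 in CFA control, 3.91, 4.28 and 4.28 in naïve mutant and 5.03, 4.32 and 4.05 in CFA mutant. It rose at least 2.88-fold in control and differed by 0.31 (SE 0.23) in mutant. The smallest control increases of this system were those of Trim30a, a tripartite-motif protein, and Uba7. Trim30a read 4.56, 5.37 and 4.47 in CFA control and 3.83, 4.31 and 3.96 in CFA mutant and was below background in all naïve arrays, so that its increase in control, where replicate 2 alone was above background, was at least 1.15-fold. Uba7 read 5.02, 5.11 and 5.17 in naïve control, 5.82, 5.75 and 5.26 in CFA control, 5.16, 4.95 and 5.20 in naïve mutant and 5.41, 5.20 and 5.59 in CFA mutant, and its CFA arrays overlapped between genotypes.

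Of the remaining genes, the RNA editing and coactivator pair rose in 2 of 2 cases in control and 1 of 2 in mutant, and the other induced proteins in 5 of 5 and 2 of 5. Adar, which edits adenosines in double-stranded RNA, read 6.67, 6.68 and 6.60 in naïve control, 7.86, 8.50 and 7.64 in CFA control, 6.65, 6.72 and 6.83 in naïve mutant and 7.56, 7.27 and 7.21 in CFA mutant. It rose by 1.35 (SE 0.19) and 0.61 (SE 0.11), and Helz2, a helicase coactivator, rose by 0.72 (SE 0.18) in control and differed by 0.20 (SE 0.10) in mutant, which was not called. The Helz2 arrays were at 5.10, 5.23 and 5.30 in naïve control, 5.96, 6.32 and 5.53 in CFA control, 5.01, 5.38 and 5.22 in naïve mutant and 5.34, 5.48 and 5.41 in CFA mutant. Xaf1, a pro-apoptotic factor, read 7.39, 8.90 and 7.06 in CFA control and 6.60, 5.72 and 5.26 in CFA mutant, compared with 4.32 to 4.60 on the naïve arrays, and rose at least 9.08-fold and at least 2.35-fold. Lgals3bp, a secreted glycoprotein, rose by 2.24 (SE 0.48) and 0.60 (SE 0.09), from naïve values of 5.49 to 5.86 to 7.92, 9.10 and 6.65 in CFA control and 6.29, 6.16 and 6.13 in CFA mutant. Ifi35, Sp100 and Tor3a were called in control (1.15, 1.83 and 0.79) and had differences of 0.29, 0.23 and 0.12 in mutant that were not called. Tor3a read 7.06, 7.59 and 6.65 in CFA control and 6.59, 6.59 and 6.45 in CFA mutant, and the genotypes did not overlap.

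Over the whole group, 20 of 43 were called higher after CFA in mutant epidermis, against 12.9% of all rows, and 0 lower, against 13.1%. With a change of at least 2-fold as well, 11 were called, against 0.602% of rows, and at an unadjusted p and 2-fold it was 12, against 0.632%. The median difference was 0.61 (0.04 over all rows), and CFA arrays lay above all naïve arrays for 24 genes, against 24% of rows. Of the 42 genes called in control, 19 (45.2%) were also called in mutant. These are 95% of the mutant calls, a share that was bound to be high with 42 of 43 called in control. A smaller difference in mutant than in control was found for 43 of 43 genes. That direction was then tested gene by gene as an interaction in 1 fit over the 12 epidermis arrays, and 0 of 43 were called, against 0.0128% of rows called lower and 0.0128% higher. At an unadjusted p under 0.05, 41 of 43 had a smaller response in mutant, against 3.68% of rows, with Oas3 and Uba7 as the exceptions. Of these, 31 differed by at least 2-fold between the responses, against 0.427% of rows. The median of the interaction was -1.56 (0.02 over all rows) and its extreme was Ifit1 at -4.05 (SE 0.76, adjusted p = 0.13). Without CFA control replicate 3, 16 of 43 were called smaller in mutant, against 0.303% of rows, and without CFA mutant replicate 3 it was 1, against 0.175%, so this count changed with single arrays. The median in mutant was 0.38 without CFA mutant replicate 1.

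**Figure D3:**
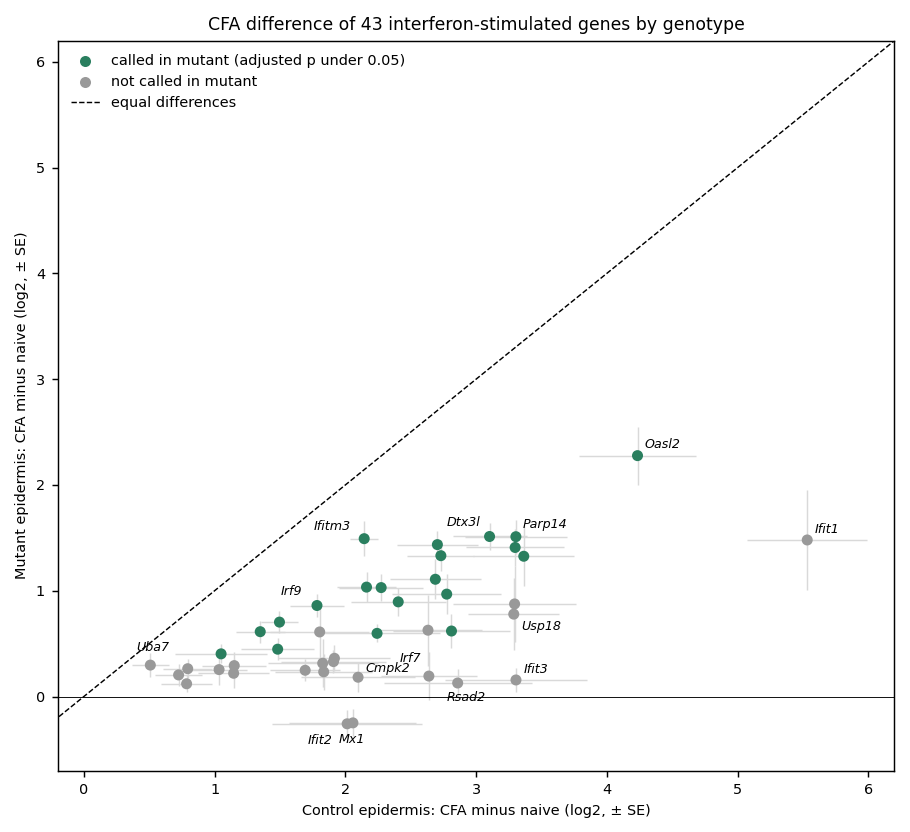
CFA minus naïve difference (log2 ± SE) of the 43 genes in control epidermis (horizontal axis) and in mutant epidermis (vertical axis); green genes were called in mutant and the dashed line marks equal differences. For 43 of 43 genes the point lies below the line, with Oasl2 highest at 2.28 in mutant and Ifit2 and Mx1 just below 0.

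The direct comparison of the genotypes after CFA used 3 arrays of each and gave a lower mean in mutant for 43 of 43 genes. The median difference was -1.45 (0.01 over all rows), from -3.95 for Ifit1 to -0.21 for Uba7. By limma 0 of 43 were called, against 0.0982% of rows called lower and 0.0812% higher. At an unadjusted p under 0.05, 41 of 43 were lower, against 3.91% of rows, and 29 of 43 were also at least 2-fold lower, against 0.44%. Every CFA mutant array lay below every CFA control array for 40 of 43 genes, against 5.6% of rows. Uba7, Oas1a and Oas3 overlapped.

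Ifit1 had the smallest adjusted p of the group (0.0573), with a difference of -3.95 (SE 0.63). As 1 of 3 mutant arrays was above background, its mean in mutant was 12.4-fold lower when the other arrays were set to their background. Ifit3 followed at 0.0658, at least 4.45-fold lower. Irf7 and Slfn8 both had an adjusted p of 0.083, with Irf7 4.69-fold lower (difference -2.23, SE 0.39) and Slfn8 at least 1.97-fold lower. Usp18 was 5.31-fold lower (SE 0.44 on the log2 scale, adjusted p = 0.0846) and Trim25, with close replicates at 8.08, 8.62 and 8.07 in control and 7.54, 7.46 and 7.44 in mutant, 1.72-fold lower (adjusted p = 0.0908). Rsad2 was 6.85-fold lower (difference -2.78, SE 0.56, adjusted p = 0.11). None of these values passed the threshold.

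By role, the median genotype difference after CFA was -2.24 for the IFIT and Mx proteins, -1.67 for the membrane proteins, -1.61 for the other induced proteins, -1.56 for nucleotide and virus restriction, -1.45 for the sensors, -1.40 for ADP-ribosylation, -1.39 for the transcription factors, -0.92 for the OAS family, -0.78 for the Isg15 and ubiquitin system and -0.59 for the RNA editing and coactivator pair. The genes were chosen with their direction on these arrays already known, so that direction is not independent evidence.

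How many were called depended on single arrays and on the pooling of the spread. Without CFA control replicate 3, which had the lowest signals of its group, 15 of 43 were called lower, against 0.355% of rows, and without replicate 2, which had the highest, 7, against 0.137%. Leaving out CFA mutant replicate 1 or 3 gave 2 and 1, against 0.0726% and 0.389%. With all 4 epidermis groups in 1 fit, 23 of 43 were called lower, against 0.598%.

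**Figure D4:**
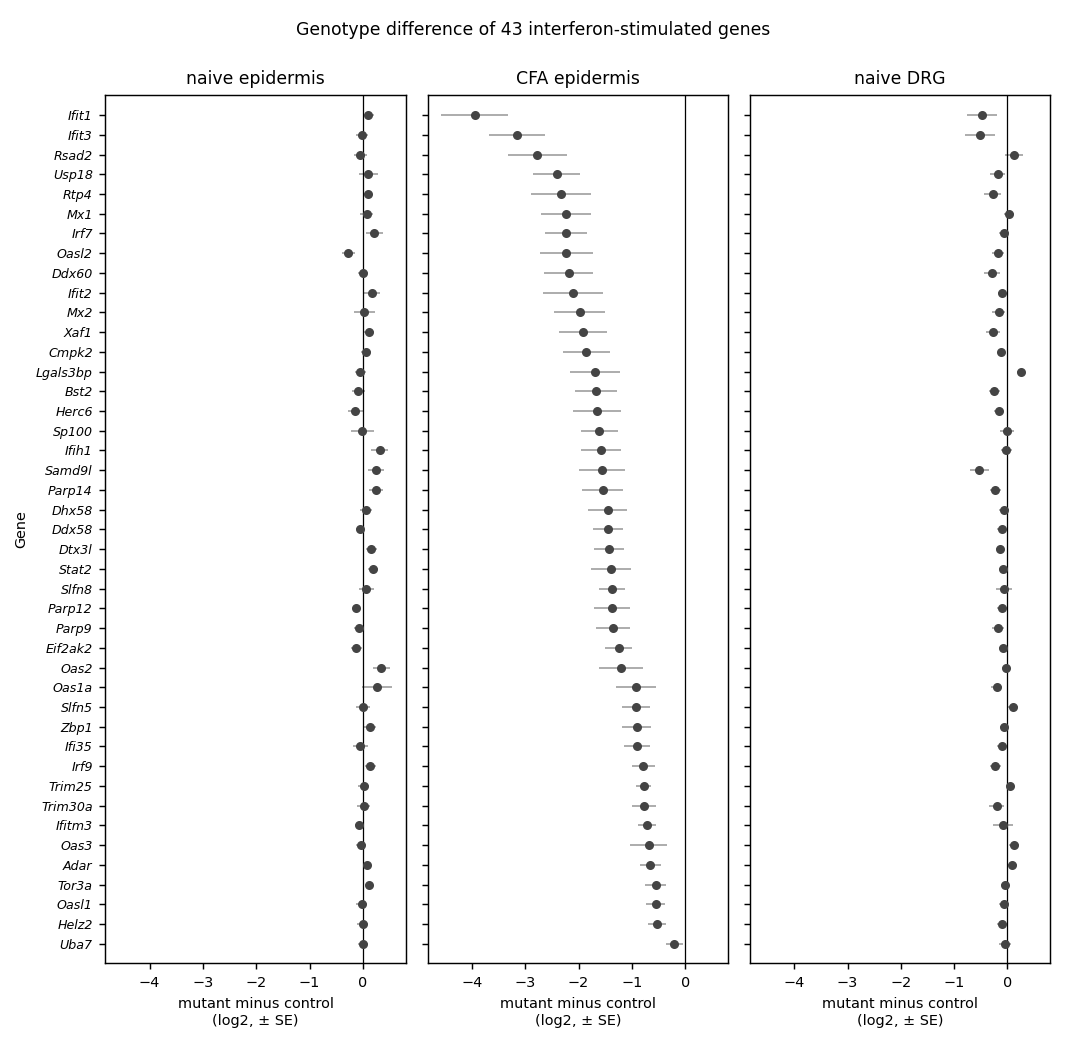
Mutant minus control difference (log2 ± SE, n = 3 arrays per group) of the 43 genes in naïve epidermis, CFA epidermis and naïve DRG, ordered by the difference in CFA epidermis. Values lie between -0.27 and 0.35 in naïve epidermis and between -0.53 and 0.25 in DRG, and extend from -0.21 to -3.95 in CFA epidermis.

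Within the CFA control group the genes moved as a block from array to array. Replicate 2 was the highest of the 3 arrays for 42 of 43 genes and replicate 3 the lowest for 42 of 43, and the mean log2 signal over the 43 genes was 7.21, 8.26 and 6.64 in replicates 1, 2 and 3. In CFA mutant, replicate 1 was the highest for 29 of 43 and replicate 3 the lowest for 30, with means of 6.13, 5.81 and 5.64. The median SD of a gene over replicates was 0.89 in CFA control (0.13 over all rows), 0.25 in CFA mutant (0.11), 0.14 in naïve control (0.10) and 0.17 in naïve mutant (0.09). The CFA control arrays thus had the largest spread of the 4 epidermis groups, and the lowest control mean stood above the highest mutant mean.

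Another list ordered the same arrays differently. The 10 NF-kB and acute-phase genes, which inflammatory signalling raises, had means of 7.28, 7.04 and 8.15 in CFA control and 6.50, 6.83 and 7.93 in CFA mutant, so that replicate 3, the lowest for the interferon-stimulated genes, was the highest in both groups. S100a8 and S100a9 of this list varied widely between arrays, with S100a8 at 9.36, 8.08 and 11.76 in CFA control and 8.23, 5.22 and 8.63 in naïve control. Of the 10 genes, 3 were called higher and 1 lower after CFA in each genotype. Of all rows, 11.5% were called higher and 14.8% lower in control, and 12.9% and 13.1% in mutant. Lcn2, a siderophore-binding protein, read 11.39, 11.37 and 12.14 in CFA control and 9.93, 9.90 and 11.97 in CFA mutant, 15.8-fold and 16.1-fold above naïve (both called, SE 0.21 and 0.54 on the log2 scale). Serpina3n, a serpin of the acute phase, rose by 5.83 (SE 0.35) and 4.23 (SE 0.71) on the log2 scale. Mutant replicate 3 stood above the other mutant arrays in both genes, and without it the mutant increases were 9.98-fold and 9.58-fold. No gene of that list was called between genotypes after CFA with all arrays, and without mutant replicate 3 Lcn2 and Serpina3n were called lower in mutant (adjusted p = 0.0154 and 0.0351). Lcn2 was already lower without CFA, at 7.88, 7.41 and 7.66 in naïve control and 7.30, 6.47 and 6.01 in naïve mutant, without overlap. The naïve arrays of Serpina3n overlapped between genotypes.

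The 10 interferon gamma targets measured were highest in CFA control replicate 2 and lowest in replicate 3, as the 43 genes were. Their means were 7.39, 7.80 and 7.02 in CFA control and 6.44, 6.64 and 6.47 in CFA mutant, without overlap, and 5.95 to 6.07 in naïve epidermis. After CFA 8 of 10 were called higher in control and 4 of 10 in mutant, against 11.5% and 12.9% of all rows. Irgm1, an immunity-related GTPase, rose by 3.43 and 1.66, and the chemokine Cxcl9 by 3.83 and 2.15. Between genotypes after CFA 0 of 10 were called, with the smallest adjusted p at H2-Ab1 (difference -0.57, adjusted p = 0.0646), an MHC class II chain. Without CFA control replicate 3 Cxcl9 was called lower in mutant (adjusted p = 0.0114), and H2-Eb1, another class II chain, without CFA mutant replicate 1 or 3 (0.00918 and 0.028). H2-Eb1 was already lower without CFA, at 7.76, 7.76 and 7.68 in naïve control and 7.26, 6.04 and 7.34 in naïve mutant epidermis, without overlap. It was also lower in mutant DRG (difference -0.85), without overlap, so its lower signal was not particular to CFA. The naïve epidermis arrays of Cxcl9 overlapped between genotypes.

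**Figure D5:**
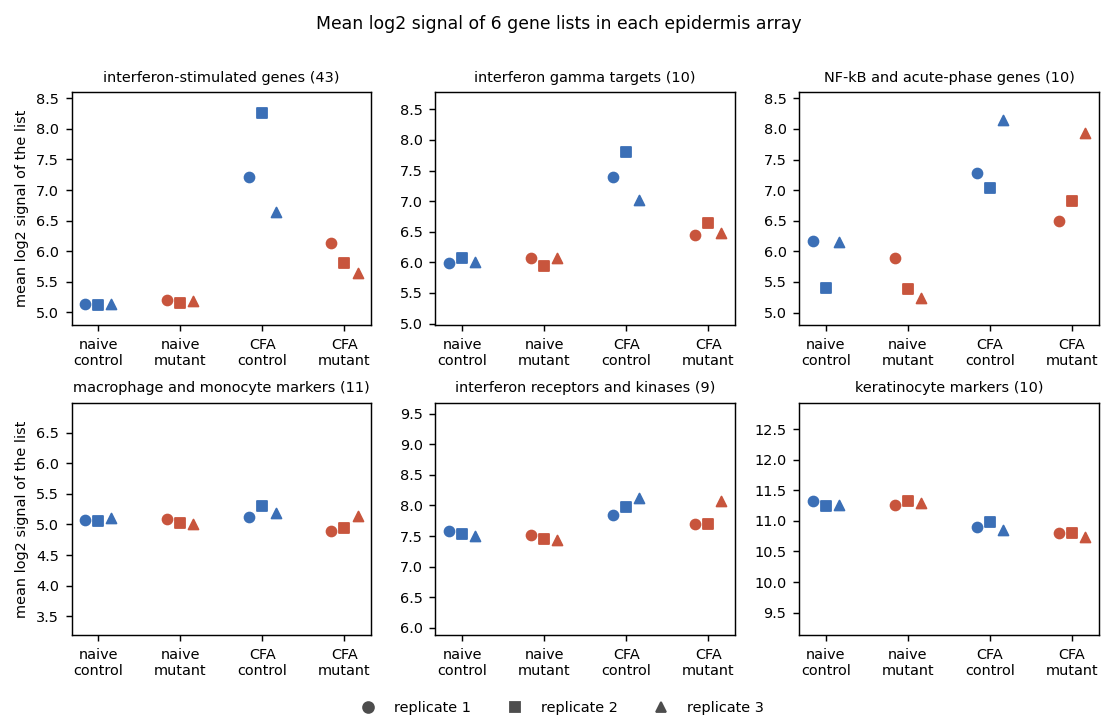
Mean log2 signal of 6 gene lists (number of genes in parentheses) on each of the 12 epidermis arrays; control blue, mutant red, the marker shape gives the replicate, and every panel spans the same 3.8 log2 units. In CFA control the 43 interferon-stimulated genes are highest in replicate 2 and lowest in replicate 3, and the NF-kB and acute-phase genes are highest in replicate 3.

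Of 16 measured interferon genes themselves, 5 or 6 were above background on any one epidermis array. After CFA 3 of 16 were called higher in each genotype, against 11.5% of all rows in control and 12.9% in mutant. The differences were small. Ifna5 rose by 0.42 in both and Ifnz by 0.47 and 0.42. Ifnb1 was called in control (0.31, adjusted p = 0.0498, held in 1 of 6 fits with an array left out) and Ifna14 in mutant (0.39, adjusted p = 0.011), though Ifnb1 was below background on all epidermis arrays. Ifnk, the interferon kappa of keratinocytes, was also below background on all of them and had differences of 0.08 and 0.39 that were not called. Between genotypes after CFA 0 of 16 were called.

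Receptors and kinases of the pathway were all above background, 9 of 9, on the epidermis arrays. For the CFA counts that follow, 11.5% of all rows were called higher and 14.8% lower in control. In mutant these shares were 12.9% and 13.1%. In control 3 rose after CFA: Ifnar1 by 0.42, Ifnar2 by 0.94 and Ifngr1, a chain of the interferon gamma receptor, by 1.74. In mutant the 3 were Ifnar2 (0.80), Ifngr1 (1.35) and the kinase Jak2 (0.30). Jak1 and Tyk2, the kinases of the type I receptor, had differences of 0.16 and 0.15 in control and 0.03 and 0.25 in mutant, none called. Among 6 other transcription factors, Irf1, Irf2 and Stat3 rose in both genotypes, Irf1 by 1.94 and 0.88, while Irf3, the factor that starts interferon beta transcription, differed by 0.10 and 0.06 and was not called. Of 12 upstream sensing genes 5 rose and 1 fell in control and 3 rose and 1 fell in mutant, with Sting1, the adaptor of cytosolic DNA sensing, among those that rose in both. Sting1 read 9.03, 9.06 and 9.02 in CFA control and 6.35, 6.36 and 9.11 in CFA mutant, with naïve values of 4.49 to 4.89. It rose by 4.35 (SE 0.11) in control and 2.58 (SE 0.64) in mutant, where replicate 3 alone was at the control level and the increase without it was 1.66 (SE 0.12). The mutant call was also lost without naïve mutant replicate 1 or 3 (adjusted p = 0.0591 and 0.0543). The toll-like receptor Tlr3 rose by 0.97 in control and 0.28 in mutant, calls that held in 3 of 6 and 1 of 6 fits with an array left out. Tlr4, another such receptor, was called higher in control but was below background on every control epidermis array. Its call held in 1 of 6 such fits, as did the lower call of Myd88 in control. Of 7 genes that restrain the response, 4 rose and 1 fell in control and 1 rose and 1 fell in mutant, and Samhd1, a nucleotide phosphohydrolase, was the one called higher in both (1.93 and 1.22). Socs1, which blocks the receptor kinases, rose by 0.57 in control and differed by 0.13 in mutant. In none of these lists was a gene called between genotypes after CFA with all arrays, out of 9, 6, 12 and 7 genes. Without CFA mutant replicate 3, Sting1, Irf1 and Socs3, an inhibitor of cytokine signalling, were called lower in mutant (differences -2.69, -1.31 and -0.97, adjusted p = 2.6e-05, 0.0198 and 0.0244). Socs3 was already lower without CFA, at 7.25, 7.11 and 7.21 in naïve control and 6.48, 6.88 and 6.73 in naïve mutant, without overlap. The naïve arrays of Sting1 and Irf1 overlapped between genotypes.

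Marker genes of cells that respond to interferon were compared on the same CFA arrays. The macrophage and monocyte list averaged 5.12, 5.29 and 5.19 in control and 4.89, 4.94 and 5.13 in mutant, and 1 of 11 genes was called lower in mutant, Csf1r (difference -0.78, adjusted p = 0.010; 0.0676 without CFA mutant replicate 2). Without CFA, Csf1r read 7.28, 7.14 and 7.16 in naïve control and 7.05, 7.01 and 7.05 in naïve mutant, also without overlap. Adgre1, Ccr2 and Mrc1 of that list were below background on every CFA array. Langerhans and dendritic cell markers averaged 4.76 to 4.94 in control and 4.73 to 4.79 in mutant, with 0 of 8 called and with Xcr1, Clec9a and Cd209a below background on every CFA array. Within that list Cd207 (langerin), which defines Langerhans cells, read 6.91, 6.93 and 6.62 in CFA control and 6.29, 6.15 and 5.91 in CFA mutant (difference -0.70, SE 0.13, adjusted p = 0.0873). Itgax, an integrin of dendritic cells, read 6.03, 5.76 and 5.78 and then 5.32, 5.55 and 5.57 (difference -0.37, SE 0.11, adjusted p = 0.33). In both of these markers every mutant array lay below every control array, as in 5.6% of all rows. Ccr7, a chemokine receptor of the same list, went the other way. It read 4.68, 4.85 and 4.69 in CFA control and 4.95, 5.08 and 5.15 in CFA mutant, also without overlap. T cell markers averaged 5.18 to 5.37 and 5.21 to 5.27, and neutrophil markers 3.97 to 4.21 and 4.06 to 4.17, with 0 of 8 called in each list. Markers of plasmacytoid dendritic cells, the specialised interferon producers, averaged 4.79 to 5.10 in control and 5.19 to 5.29 in mutant, with 0 of 5 called and a median difference of 0.12. The list named Klk1, but the row used was that of Klk1b1, a different gene that was below background on every CFA array. Most of the gap came from Ccr9, a chemokine receptor, which read 4.64, 4.56 and 3.74 in control and 5.95, 5.50 and 5.40 in mutant (at least 1.84-fold higher, since control lay below background, adjusted p = 0.083; 0.0499 without CFA control replicate 3). In naïve epidermis Ccr9 read 7.68, 7.53 and 6.78 in control and 7.49, 7.66 and 7.49 in mutant. It was called lower after CFA in both genotypes (differences -3.01 in control and -1.93 in mutant, adjusted p = 6.13e-05 and 3.98e-05). The higher Ccr9 signal in CFA mutant thus came after a high naïve level in both genotypes. The fitted fall was smaller in mutant, but CFA control lay below background, so the size of the control fall is not fixed. Keratinocyte markers averaged 10.86 to 10.98 in control and 10.74 to 10.80 in mutant, with 0 of 10 called. Without CFA control replicate 3 the cornified envelope genes Lor and Flg2 were called lower in mutant (adjusted p = 0.0158 and 0.0275), Flg2 also without CFA mutant replicate 1 (0.0475), and without CFA mutant replicate 3 Itgam, an integrin of myeloid cells, was (0.0476). Among the CFA arrays, Flg2 was above background on control replicate 2 alone. The part of these lists in the lower signals of the mutant was not tested.

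In DRG the genes were detected in naïve mice, with 38 of 43 above background on all arrays of either genotype, and no difference between genotypes was called. The median difference was -0.10 (0.00 over all rows), and 36 genes had a lower and 7 a higher mean in mutant. By limma 0 of 43 were called, against 0.0256% of rows higher and 0.047% lower, and 1 was higher and 2 were lower at an unadjusted p under 0.05, against 3.58% and 3.56% of rows. Lgals3bp read 10.02, 9.83 and 9.88 in control and 10.16, 10.25 and 10.08 in mutant (difference 0.25, SE 0.08, adjusted p = 0.59). These groups did not overlap. In all, 1 gene was apart in the higher direction, against 5.01% of rows, and 3 in the lower, against 6.77%.

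Samd9l read 7.07, 7.70 and 7.35 in control DRG and 6.57, 6.83 and 7.12 in mutant DRG (difference -0.53, SE 0.17, adjusted p = 0.60). Bst2 read 7.42, 7.62 and 7.81 and then 7.36, 7.43 and 7.32 (difference -0.24, SE 0.10, adjusted p = 0.68). Irf9 read 7.22, 7.50 and 7.61 in control DRG and 7.17, 7.20 and 7.28 in mutant DRG (difference -0.23, SE 0.10, adjusted p = 0.70), and Parp14 7.49, 7.88 and 7.74 in control DRG and 7.39, 7.47 and 7.56 in mutant DRG (difference -0.23, SE 0.10, adjusted p = 0.70). In all 4 genes the genotypes overlapped. Control replicate 2 had the highest signal for 29 of 43 genes, and Ifit1 and Ifit3 show it most plainly. Ifit1 read 7.43, 8.76 and 8.19 in control DRG and 7.71, 7.49 and 7.73 in mutant DRG, and Ifit3 7.17, 8.46 and 7.67 and then 7.04, 7.29 and 7.42. Leaving out the 2 arrays with more keratinocyte transcript gave a median of -0.10 and 0 called.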

How the data were processed

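RNA (100 ng per array) from epidermis and DRG was hybridised to 18 Affymetrix Mouse Gene ST arrays. The authors summarised each probe set by RMA, deposited the log2 signals and compared groups with Partek software by ANOVA. No further scaling was applied to these log2 values for the main results. The table holds 35556 rows, of which 23410 are paired with at least 1 gene in the platform annotation and were tested, and 21789 with exactly 1. The tissues had been normalized separately and were compared only within themselves. Groups are those of the labels, 3 arrays each. Linear models of limma 3.58.1 (R 4.3.3; lmFit, then eBayes) were fitted for each comparison on its own arrays, two-sided, with Benjamini-Hochberg adjustment over all rows tested, and the response difference as an interaction over the 12 epidermis arrays. The fit was tested on simulated data. Arrays carry no read depth, and their number limits the precision.

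Members, roles and lists were chosen with earlier results of these data known. Values by array are given for up to 10 called members with the largest difference per comparison (filled to 5 by the smallest p), the 2 members of each role with the largest genotype difference after CFA, and the 5 with the smallest CFA difference in control. Arrays of other members were added after their values were seen. Alternatives covered scaling, filters, variance options, the replicate number as a block and each array left out. Promoters came from RefSeq (GRCm38.p6). Figures used Python 3.11.15, pandas 2.3.3 and matplotlib 3.10.9.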

Additional observations from a re-analysis of the deposited data

How the results depend on the processing

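The direction of the median difference was kept in each of the 6 comparisons under every scaling tried and with any 1 array left out. For CFA mutant minus control, where 0 of 43 were called, the count was 1 with arrays centred on their median and 1 with limma's trend and robust options. It was 23 with all groups of the tissue in 1 fit (0.598% of rows lower) and 29 at 2-fold with an unadjusted p under 0.05 (0.44%). It was 16 with gene-wise ANOVA at the same 2-fold rule, an alternative chosen after seeing the data, and 0 to 15 with 1 array left out. With the replicate number as a block it was 32 lower, against 0.863% of rows. Same-numbered arrays of that comparison correlated at 0.00, 0.02 and 0.23, so the number was not taken as a pairing, and the block changed no count of members by over 1.5 times in the other comparisons. For the CFA response, mutant minus control, the counts were 31 at 2-fold and unadjusted p (0.427% of rows lower), 28 by the ANOVA at that threshold, and 0 to 16 with 1 array left out. For control CFA minus naïve the ordinary ANOVA with adjustment called 15, the trend and robust options 32, and 39 to 43 were called with 1 array left out. For mutant CFA minus naïve the counts were 11 at 2-fold with an adjusted p (0.602% of rows higher) and 12 with an unadjusted p (0.632%). They were 11 by the ANOVA and 19 to 26 with 1 array left out. Where no share of all rows stands beside a count, its change is not read as particular to these genes. With 1 array left out, the medians ranged from 0.00344 to 0.0759 (naïve), -1.80 to -1.01 (CFA), -0.18 to -0.06 (DRG), 1.64 to 2.60 (CFA in control), 0.38 to 0.68 (CFA in mutant) and -1.88 to -1.05 (response). Median centring moved the naïve median to 0.000645. Irf7 reversed in 1 case, mutant CFA minus naïve without CFA mutant replicate 1 (-0.0638, adjusted p = 0.82; without each array in turn -0.0638 to 0.415). Uba7 lost its call in control without any 1 of the naïve arrays or CFA control replicate 1 or 2 (adjusted p of 0.0567 to 0.0917), and Ddx60 in mutant without naïve mutant replicate 1 or 2 or CFA mutant replicate 1 or 2 (adjusted p of 0.0584 to 0.0803). Ifit2 lost its call in control in 5 of 6 such fits, all but that without CFA control replicate 3 (adjusted p of 0.0625 to 0.109), and Zbp1 in mutant without naïve mutant replicate 1 (0.0581) or 3 (0.0507). Helz2 and Tor3a lost theirs in control without naïve control replicate 1 (0.0551) and replicate 3 (0.0531). The causes were not tested.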
